A study of Mus musculus with 9 samples.

Results

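A set of 8 transcription factors of the enteroendocrine lineage, Neurog3, Neurod1, Insm1, Nkx2-2, Pax6, Isl1, Rfx6 and Etv1, was followed across 9 arrays of mouse stomach cells. The members were every probe set that the platform annotation pairs with 1 gene alone, that gene being on the list, which gave 14 of the 45037 probe sets, for 6 of the 8 genes. The mice were C57BL/6. The chief group (3 arrays) held Mist1+Tomato+ cells from the corpus of the stomach, Tomato being a red fluorescent reporter and Mist1, the product of Bhlha15, a transcription factor of enzyme-secreting cells. The isthmus group (3 arrays) held cells with the same label taken after Lgr5+ cells had been ablated, Lgr5 being a receptor of the Wnt pathway. The parietal group (3 arrays) held parietal cells, which secrete acid. The Mist1+Tomato+ cells were isolated by flow cytometry. The construct that drives the reporter, the means of ablation, the isolation of the parietal cells and the age of the animals are not stated in the sources used here. Signals are on the log2 scale, so that a difference of 1 is a doubling. Levels of different probe sets depend on the probe, so groups are compared by 1 probe set at a time, apart from summed marker signals and from the gap between the Isl1 probe sets within an array.

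Enteroendocrine cells are scattered hormone-secreting cells of the gut lining, and in the corpus of the stomach they make chiefly ghrelin, somatostatin and histamine. They arise from epithelial progenitors in which Notch signalling falls and a cascade of transcription factors begins, with Neurog3 transient at its head, Neurod1, Insm1, Nkx2-2 and Rfx6 acting after it, and Pax6 and Isl1 acting in the maturing, hormone-producing cell. Several of the same factors work in pancreatic islets and in neurons.

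Isl1 and Nkx2-2 were lower in the parietal samples than in either group of Mist1+ cells, and Insm1 was lower in the parietal than in the chief samples. No probe set of the list passed the test between isthmus and chief samples. Neurog3 lay below the median of all probe sets on all 9 arrays, and no Pax6 probe set was bright enough to be tested. The linear model test of limma was run on the 21393 probe sets that name 1 gene and exceeded the median of their array in 3 or more of the 9 arrays, and 6 of the 14 member probe sets were among them: both of Isl1, both of Insm1, 1 of Neurod1 and the one of Nkx2-2. Of these 6, 5 were lower in the parietal than in the chief samples and 0 were higher, where 11.2% of all tested probe sets were lower, 8.70% were higher and 19.9% passed in either direction. Between isthmus and parietal samples 3 of the 6 were higher in the isthmus samples, where 12.4% of all tested probe sets were higher, 10.1% were lower and 22.5% passed in either direction. Between isthmus and chief samples 0 of the 6 passed, where 1.12% of all tested probe sets did (0.888% lower and 0.234% higher in the isthmus samples), and 2 of the 6 had an unadjusted p under 0.05, as did 3343 of all tested probe sets. Among the 6, 4 (Neurod1, Nkx2-2 and both of Insm1) passed the filter with no parietal array above its own median, so that only brighter Mist1+ arrays could bring them into the test, and these counts are a description of the members only. The samples were bulk RNA, in which fewer endocrine cells and less of a transcript per cell cannot be told apart.

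**Figure D1:**
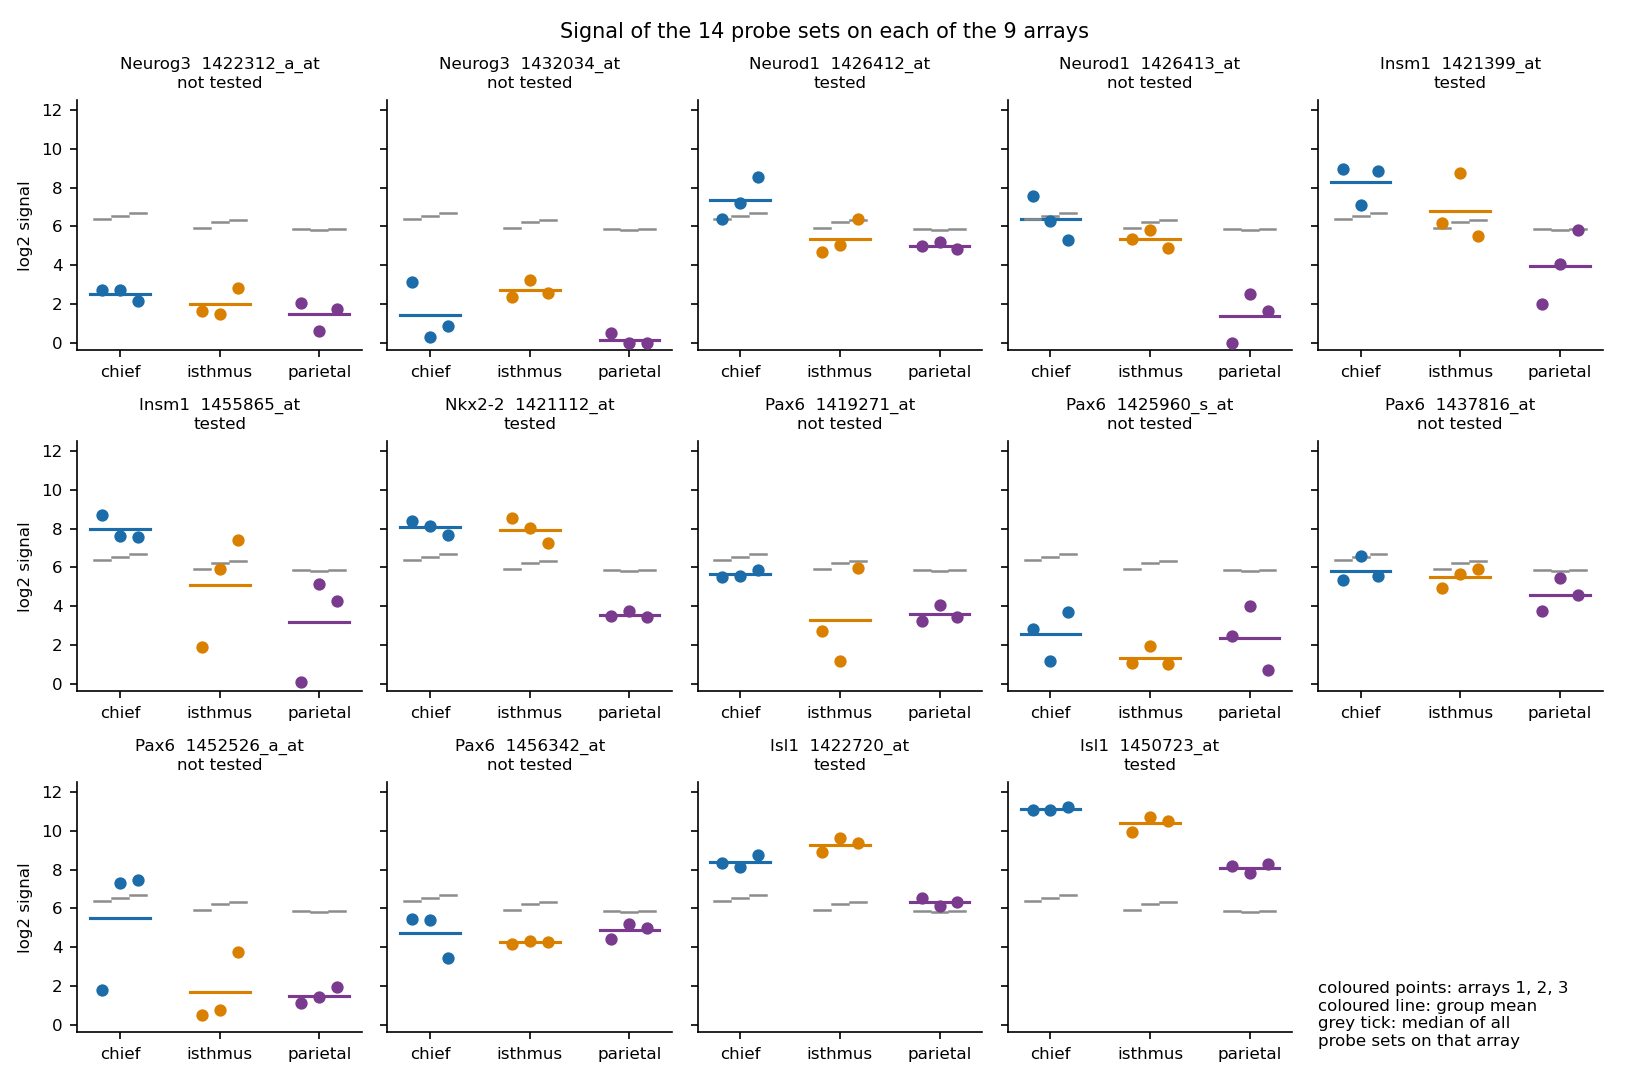
Log2 signal (vertical axis) of each of the 14 probe sets on the 3 chief, 3 isthmus and 3 parietal arrays; points are arrays, coloured lines group means and grey ticks the median of all probe sets on that array. Isl1 is above the median on all 9 arrays, Nkx2-2 on the 6 Mist1+ arrays, and both Neurog3 probe sets lie below it everywhere.

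The labelled identities were set against marker genes. Of 11 parietal cell genes, 10 were tested and all 10 were higher in the parietal than in the chief samples, and the summed linear signal of the list was 90402 to 105164 on the parietal arrays against 21110 to 41394 on the chief and 19486 to 36380 on the isthmus arrays. Of 11 chief cell genes 10 were lower in the parietal than in the chief samples. So were all 5 pit cell genes and all 3 tested neck cell genes, where 11.2% of all tested probe sets were lower. The summed pit signal was 104122 to 129199 on the chief, 67444 to 80509 on the isthmus and 52241 to 59062 on the parietal arrays. Slc26a7 passed the filter through parietal arrays alone, and Pnliprp1 and Cftr through Mist1+ arrays alone. Bhlha15 itself was 10.75, 10.05 and 9.20 in the chief but 5.03, 1.34 and 7.36 in the isthmus samples, which places isthmus replicates 1 and 2 below their array medians for the transcript their label names. Its isthmus minus chief difference did not pass (adjusted p = 0.138). Of the 11 chief cell genes 5 were lower in the isthmus than in the chief samples and 6 did not pass. Of the 5 pit cell genes 4 were also lower, where 0.888% of all tested probe sets were. Chief replicate 3 stood apart in connective tissue genes, with Col1a1 at 12.48 against 1.30 to 7.26 on the other 8 arrays. Chief replicate 3 and parietal replicate 1 had Xist at 11.72 and 13.13 against 4.46 to 5.93 elsewhere. Endocrine genes were bright in the Mist1+ samples: the summed signal of 7 endocrine markers (Chga, Chgb, Ghrl, Sst, Hdc, Pcsk1 and Syp, none of them listed at 0) was 33592 to 57012 on the chief, 16357 to 28785 on the isthmus and 1399 to 1844 on the parietal arrays. Of these 7 genes 6 were lower in the parietal than in the chief samples. Syp, a membrane protein of synaptic and hormone vesicles, went against the other 6, at 10.41, 10.23 and 9.92 on parietal arrays, against 8.03 to 9.77 on chief and 6.42 to 8.90 on isthmus arrays (higher in parietal than in isthmus samples, adjusted p = 0.00646). Gast, gastrin, a hormone outside those named above for the corpus, split both Mist1+ groups. It was 14.48, 3.65 and 13.84 on chief, 11.38, 3.66 and 14.07 on isthmus and 1.62, 6.76 and 1.48 on parietal arrays. Pdx1, of the other endocrine and islet factors below, was 9.39, 2.95 and 8.31 on chief and 0.65, 3.10 and 6.27 on isthmus arrays. Its parietal values were 0, 6.19 and 1.70. The cause of the split was not tested. The part of these markers in the differences described here was not tested.

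Neurog3, the basic helix-loop-helix factor that commits a progenitor to the endocrine fate, is read by probe sets 1422312_a_at and 1432034_at. The first gave 2.71, 2.73 and 2.16 on the chief, 1.62, 1.46 and 2.83 on the isthmus and 2.06, 0.60 and 1.74 on the parietal arrays. The other gave 3.15, 0.29 and 0.88 on the chief, 2.36, 3.25 and 2.58 on the isthmus and 0.48, 0 and 0 on the parietal arrays. All 18 values lay below the array medians of 5.80 to 6.70, so neither probe set was tested and no fold is given. Neurog3 was thus not detectable above that level in any group, although genes that act after it were.

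Neurod1, a helix-loop-helix factor that acts after Neurog3 in the differentiating endocrine cell, gave 6.38, 7.19 and 8.53 by probe set 1426412_at in the chief samples. The isthmus values were 4.65, 5.06 and 6.36 and the parietal values 4.97, 5.20 and 4.83. Each chief array lay above every isthmus and parietal array, while isthmus and parietal arrays overlapped. The parietal mean (SD 0.19) lay 2.37 ± 0.92 (SE) below the chief mean of 7.37 ± 1.09 (SD, n = 3 each), which did not pass (adjusted p = 0.0893, 0.0275 to 0.392 over the alternatives). It passed with values floored at the array median (adjusted p = 0.0275) and without the intensity trend (0.041). The isthmus mean of 5.36 ± 0.89 lay 2.01 below the chief mean (adjusted p = 0.312). Probe set 1426413_at was above its array median only on chief replicate 1 and was not tested. It gave 7.57, 6.25 and 5.27 on the chief, 5.32, 5.81 and 4.88 on the isthmus and 0, 2.50 and 1.62 on the parietal arrays. The parietal arrays were thus the lowest by this probe set, with a difference of -4.99 from the chief mean (adjusted p = 0.00649 when every probe set was tested), but since nearly all its values lay below the medians the fold is bounded only at 1.44 or more. The probe sets differed on the isthmus arrays, which overlapped with the parietal arrays by 1426412_at and with the chief arrays by 1426413_at.

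Insm1, a zinc finger repressor that drives endocrine differentiation, was lower in the parietal than in the chief samples by both probe sets. By 1421399_at the chief values were 8.98, 7.09 and 8.86, the isthmus values 6.15, 8.75 and 5.51 and the parietal values 1.99, 4.04 and 5.82. All chief arrays lay above all parietal arrays, and the isthmus arrays overlapped with both groups. The parietal samples were at least 5.55-fold below the chief samples (difference -4.36 ± 1.13 SE, adjusted p = 0.0162). The call was lost when chief replicate 1 (adjusted p = 0.059), chief replicate 3 (0.0602) or parietal replicate 1 (0.055) was left out, and when chief replicate 3 and parietal replicate 1 both were (0.143), with a range of 0.0105 to 0.143 over the alternatives.

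By 1455865_at Insm1 was 8.68, 7.63 and 7.58 on the chief, 1.88, 5.89 and 7.43 on the isthmus and 0.08, 5.15 and 4.26 on the parietal arrays. All isthmus and parietal arrays lay below all chief arrays, and they overlapped with each other. The difference between parietal and chief means was -4.80 ± 1.57 (SE), or at least 4.37-fold (adjusted p = 0.0461). This call was kept in 8 of 19 alternatives and was lost on leaving out any 1 chief array (adjusted p = 0.129, 0.0918 and 0.0907 without replicates 1, 2 and 3), without isthmus replicate 2 (0.0569) and without parietal replicate 1 or 3 (0.151 and 0.0653), with a range of 0.00529 to 0.21. It was also lost with no filter (0.0579), with centred arrays (0.0563), after quantile normalization (0.0664), without the intensity trend (0.0939) and without chief replicate 3 and parietal replicate 1 together (0.21). The isthmus samples were the most scattered, at 6.80 ± 1.72 and 5.07 ± 2.87 (SD, n = 3) by the 2 probe sets, and they passed against neither the chief samples (adjusted p = 0.565 and 0.406) nor the parietal samples (0.0906 and 0.429). By 1421399_at the higher isthmus level passed against the parietal samples without parietal replicate 3 (adjusted p = 0.0457, range 0.0457 to 0.322). Isthmus replicates 1 and 3 exchange places between the probe sets, replicate 1 lying above replicate 3 by the first and below it by the other.

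Nkx2-2, a homeodomain factor that selects among endocrine cell types, was lower in the parietal samples than in both groups of Mist1+ samples. The chief values were 8.38, 8.12 and 7.69, the isthmus values 8.53, 8.04 and 7.27 and the parietal values 3.49, 3.75 and 3.45. The parietal arrays were tightly grouped and below their medians, while chief and isthmus arrays interleaved. The parietal samples lay at least 4.68-fold below the chief samples (difference -4.50 ± 0.72 SE, adjusted p = 0.000779) and at least 4.32-fold below the isthmus samples (adjusted p = 0.000776). Both calls held in all 21 alternatives, with adjusted p-values of up to 0.00667. The isthmus mean of 7.95 ± 0.64 and the chief mean of 8.06 ± 0.35 (SD, n = 3 each) differed by -0.12, with a 95% interval of -1.67 to 1.43 (adjusted p = 0.96). The sign of this last difference changed with the scaling, to 0.26 with centred arrays and 0.01 after quantile normalization.

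Isl1, a LIM homeodomain factor of hormone-producing cells and of neurons, was above the array median on all 9 arrays by both probe sets. By 1450723_at it was 11.07, 11.06 and 11.24 on the chief, 9.95, 10.72 and 10.48 on the isthmus and 8.16, 7.80 and 8.26 on the parietal arrays. The 3 groups did not overlap and stood in the order chief, isthmus, parietal. The parietal samples were 8.28-fold below the chief samples (difference -3.05 ± 0.33 SE, adjusted p = 4.37e-05) and 4.96-fold below the isthmus samples (adjusted p = 0.00028), calls that held in all 21 alternatives. By 1422720_at Isl1 was 8.36, 8.15 and 8.73 on the chief, 8.89, 9.60 and 9.37 on the isthmus and 6.55, 6.11 and 6.31 on the parietal arrays. Again no groups overlapped, but the isthmus samples were now the highest. The parietal samples were 4.26-fold below the chief samples (adjusted p = 0.00961), a call lost with centred arrays (adjusted p = 0.0518) and without chief replicate 3 and parietal replicate 1 together (0.0596, range 0.00489 to 0.0596). They were 7.80-fold below the isthmus samples (adjusted p = 0.000882), which held in all 20 alternatives.

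The Isl1 probe sets thus gave the same order of parietal against Mist1+ samples and opposite orders of isthmus and chief samples. The isthmus minus chief difference was -0.74 by 1450723_at (95% interval -1.45 to -0.03, adjusted p = 0.296) and 0.87 by 1422720_at (-0.19 to 1.94, adjusted p = 0.431), and neither passed. Each kept its sign in every alternative run, at -0.91 to -0.36 and 0.72 to 1.25. Within each array the gap between the probe sets was 2.71, 2.91 and 2.51 on the chief, 1.06, 1.12 and 1.11 on the isthmus and 1.61, 1.69 and 1.95 on the parietal arrays. The gap did not overlap between any 2 groups, its mean being 2.71 ± 0.20, 1.10 ± 0.03 and 1.75 ± 0.18 (SD, n = 3 each). In an exact two-sided permutation test each of the 3 comparisons of the gap gave p = 0.10, also after Benjamini-Hochberg adjustment, which is the smallest that 3 arrays against 3 allow. Groups without overlap could give no other value, so the test adds nothing to the values above. How often the probe sets of other genes differ in this way was not counted. The gap was chosen for description after its values had been seen, and no sequences of the probes were used here to place them on the transcript.

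**Figure D2:**
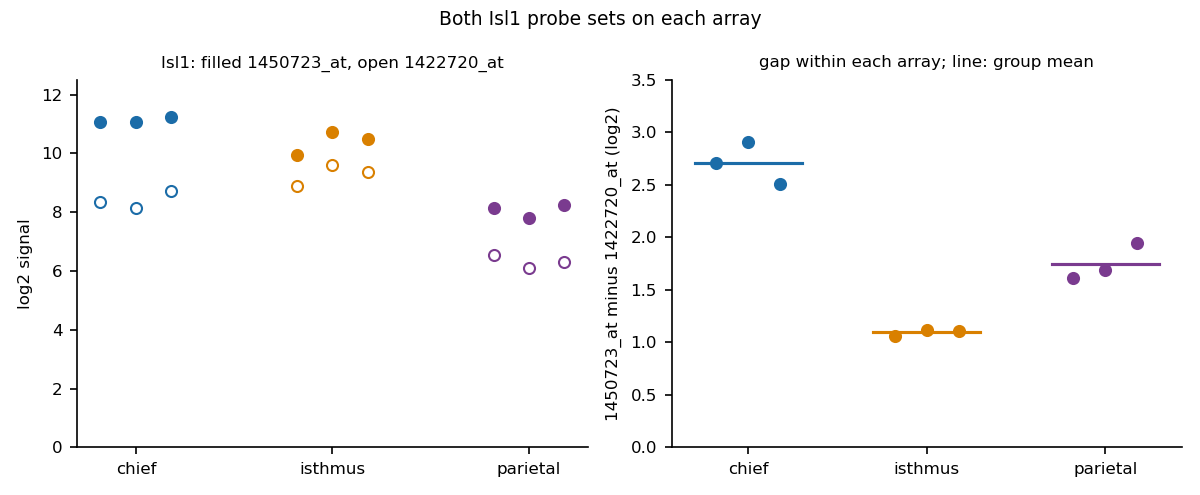
Left, log2 signal of Isl1 by probe set 1450723_at (filled) and 1422720_at (open) on each array; right, the difference between them within each array, with the group mean as a line. The gap is 2.51 to 2.91 on chief, 1.06 to 1.12 on isthmus and 1.61 to 1.95 on parietal arrays.

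The regions just before the start sites of Isl1 and Nkx2-2, the members whose calls were the most stable, are shown because helix-loop-helix factors such as Neurog3 and Neurod1 bind the E box, spelled CANNTG. Each window holds the 250 bases before the start site, 5′ to 3′ on the strand of the gene, with every CANNTG in capitals, from RefSeq sequences of assembly GRCm38.p6. Isl1 lies on the minus strand at chr13:116309689-116309938 and Nkx2-2 on the minus strand at chr2:147186403-147186652.
Isl1: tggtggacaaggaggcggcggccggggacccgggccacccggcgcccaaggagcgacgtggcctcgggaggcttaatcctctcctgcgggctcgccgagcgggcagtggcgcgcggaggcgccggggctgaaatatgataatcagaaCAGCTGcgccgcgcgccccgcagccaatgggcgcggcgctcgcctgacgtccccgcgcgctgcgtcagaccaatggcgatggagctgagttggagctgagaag
Nkx2-2: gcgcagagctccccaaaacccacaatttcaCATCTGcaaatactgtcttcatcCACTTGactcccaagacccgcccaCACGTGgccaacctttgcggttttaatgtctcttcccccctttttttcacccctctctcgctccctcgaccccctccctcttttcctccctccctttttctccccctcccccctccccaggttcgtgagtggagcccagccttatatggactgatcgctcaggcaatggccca
The Isl1 window holds 1 match, CAGCTG, which begins 103 bases before the start. The Nkx2-2 window holds 3, with CATCTG beginning 220 bases before the start, CACTTG 197 and CACGTG 173. CANNTG reads the same on both strands, so 1 search covers both, and 66.2% of 32851 windows of this length in the table hold it, while 14.4% hold CAGATG or its reverse complement CATCTG and 13.0% hold CAGCTG. Among the other listed genes in the table, the window of Neurog3 holds CAGCTG 1 time and that of Neurod1 holds CATATG 1 time, while Pax6 has 0 and 1 at its 2 start sites, Etv1 0 and 3, and Rfx6 0. These are matches of letters and not measured sites. Of the listed genes Insm1 was not matched in the table.

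Pax6, a paired and homeodomain factor needed for hormone gene expression in endocrine cells, is read by 5 probe sets, none of which passed the filter. By 1419271_at it was 5.48, 5.54 and 5.88 on the chief, 2.71, 1.16 and 5.97 on the isthmus and 3.23, 4.05 and 3.46 on the parietal arrays, all below the array medians. By 1437816_at it was 5.33, 6.57 and 5.55 on the chief, 4.93, 5.66 and 5.93 on the isthmus and 3.77, 5.47 and 4.55 on the parietal arrays, with chief replicate 2 alone above its median. By 1452526_a_at it was 1.78, 7.33 and 7.45 on the chief, 0.49, 0.75 and 3.77 on the isthmus and 1.12, 1.43 and 1.92 on the parietal arrays. By the last probe set chief replicates 2 and 3 lay above their array medians, while chief replicate 1 lay far below them. The remaining Pax6 probe sets were 1425960_s_at, at 0.68 to 4.01, and 1456342_at, at 3.42 to 5.44 over the 9 arrays. When every probe set was tested, none of the 5 passed in any comparison (lowest adjusted p = 0.101, for 1452526_a_at between parietal and chief samples). Pax6 was therefore not measured well enough here to order the groups.

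Of the other listed genes, Etv1, an ETS family factor, was named only by 3 probe sets that also name the pseudogene Gm5454, and it was left out by the rule. Rfx6, a winged helix factor of the same cascade, was named by none of the probe sets used here. Neither is analysed here.

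**Figure D3:**
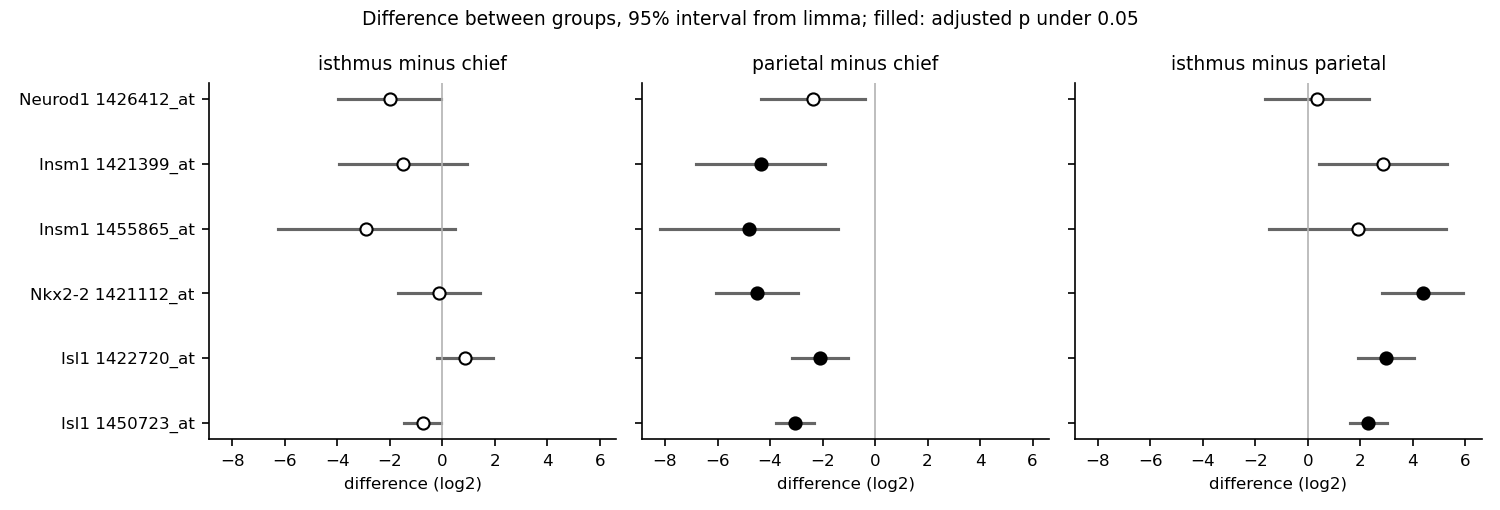
Difference between group means (horizontal axis, log2) of the 6 tested probe sets in each comparison, with 95% intervals from limma; filled points have an adjusted p under 0.05. The intervals for Isl1 and Nkx2-2 lie away from 0 in both comparisons with parietal samples, and those of Insm1 1455865_at are the widest in each comparison, for example -8.18 to -1.42 between parietal and chief samples.

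Counted over all 14 probe sets, tested or not, the arrays did not overlap and were lower in the parietal than in the chief samples for 9, among them all 6 of those tested, where 20.0% of all tested probe sets separated in that direction. Neurod1 1426412_at, Nkx2-2 and both of Insm1 were tested only because Mist1+ arrays were brighter, so this count is a description of the members only. The untested ones were Neurog3 1422312_a_at, Neurod1 1426413_at and Pax6 1419271_at. They lay below the median on all 9 arrays, except for Neurod1 on chief replicate 1. None of the 14 separated in the other direction, where 16.5% of all tested probe sets did. Between isthmus and chief samples 3 of the 14 did not overlap and were lower in the isthmus (Neurod1 1426412_at, Insm1 1455865_at and Isl1 1450723_at), and 1 was higher (Isl1 1422720_at), where 10.2% and 9.29% of tested probe sets did so. Between isthmus and parietal samples 5 of the 14 were higher and 1 was lower without overlap, where 21.6% and 18.6% did so. Among the higher ones, Neurog3 1432034_at and Neurod1 1426413_at lay below the median on every array of both groups. So did the lower one, Pax6 1456342_at. The median difference over the 14 was -2.23 for parietal against chief, -0.88 for isthmus against chief and 1.40 for isthmus against parietal, beside -0.13, 0.00 and 0.09 over all tested probe sets. These shares and medians cover probe sets that passed the filter, which 8 of the 14 did not. With no filter the medians over all 34945 probe sets that name 1 gene were -0.23, -0.1 and 0.07. The 3 comparisons share arrays, and probe sets of 1 gene share their transcript.

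Other factors of the endocrine and islet lineages did not move as 1 group. Of 38 such genes 32 had a probe set of their own and 13 were tested, 15 of the 32 lying below the median on all 9 arrays. Between parietal and chief samples 3 were lower, 1 was higher and 9 did not pass, with a median difference of -0.35. Of all tested probe sets 11.2% were lower and 8.70% were higher. St18, a zinc finger factor of the Myt family found in endocrine cells, was 9.75, 7.12 and 9.35 on the chief, 8.94, 8.40 and 8.42 on the isthmus and 4.01, 1.97 and 0.73 on the parietal arrays, and thus separated the groups as Nkx2-2 did. It was at least 7.48-fold lower in the parietal than in the chief samples (adjusted p = 0.000507). Foxa3, a forkhead factor of the gut endoderm, was lower in those samples by 1.94-fold (adjusted p = 0.0045), a call lost with centred arrays (0.445, the highest over its alternatives). Prox1, a homeodomain factor, was at least 2.87-fold lower (adjusted p = 0.032). For St18 and Prox1 no parietal array lay above its own median, so that only Mist1+ arrays brought them into the test. Prox1 no longer passed without chief replicate 1 or 2 (adjusted p = 0.131 and 0.0694), without parietal replicate 1, 2 or 3 (0.0532, 0.0739 and 0.0758) and in 3 other alternatives (range 0.00743 to 0.131). Runx1t1, a corepressor found in the endocrine pancreas, went the other way, at 12.38, 12.19 and 12.01 on the parietal against 7.86, 8.25 and 8.21 on the chief arrays (17.0-fold, adjusted p = 0.00165). Between isthmus and parietal samples 2 of the 13 were higher (St18 and Foxa3) and 1 was lower (Runx1t1). Between isthmus and chief samples 0 of the 13 passed, the brightest, Foxa1 and Foxa3, differing by -0.06 and 0.08 (adjusted p = 0.879 and 0.885), with signs that turned in 1 and 3 alternatives.

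The Notch pathway, which holds the endocrine cascade back in progenitors, and the Id proteins, which bind helix-loop-helix factors and keep them from DNA, differed between parietal and Mist1+ samples in both directions. Of 14 genes 10 were tested. Against the chief samples 3 were lower in the parietal samples, 3 were higher and 4 did not pass, beside 11.2% lower and 8.70% higher among all tested probe sets. Notch2, a receptor, was at least 26.6-fold lower (adjusted p = 0.000113) and Notch1 2.82-fold lower (adjusted p = 0.0346). Notch1 no longer passed without chief replicate 1 or 3 (adjusted p = 0.0793 and 0.103), without parietal replicate 1 or 3 (0.124 and 0.0629) and in 6 other alternatives, the replicate block among them (0.0533; range 0.0316 to 0.252). Hey1, a repressor induced by Notch, was at least 6.53-fold higher (adjusted p = 0.00488), and Id2 5.15-fold higher (adjusted p = 2.29e-05). For Hey1 the parietal arrays and isthmus replicate 2 alone lay above their medians. Only the brighter parietal arrays could thus bring it into the test, and its calls are a description only. Hes1, the Notch target that represses Neurog3, was 9.19, 8.47 and 8.75 on the chief, 8.41, 9.73 and 8.30 on the isthmus and 7.18, 7.03 and 7.54 on the parietal arrays. It did not pass between parietal and chief samples (adjusted p = 0.0531) and was 2.96-fold higher in the isthmus than in the parietal samples (adjusted p = 0.0473). No range over the alternatives is given for Hes1. Between isthmus and parietal samples 4 of the 10 were higher in the isthmus samples and 3 were lower. Hey1 was at least 6.05-fold lower (adjusted p = 0.02, 0.0018 to 0.0733 over the alternatives) and Id2 3.4-fold lower (0.000158). Notch2 was at least 33.3-fold higher (6.45e-05) and Notch1 3.17-fold higher (0.0185, 0.0164 to 0.0836 over the alternatives). Between isthmus and chief samples 0 of the 10 passed.

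Many hormone and granule genes were lower in the parietal samples too. Of 18 hormones and amine enzymes 9 were tested, and 6 were lower and 0 higher in the parietal than in the chief samples, with a median of -5.63. Ghrl, ghrelin, was at least 122-fold lower (adjusted p = 3.54e-07) and Hdc, the enzyme that makes histamine, at least 49.2-fold lower (adjusted p = 0.000467). Of 30 granule and vesicle genes 23 were tested, and 14 were lower and 0 higher, with a median of -4.63. Of all tested probe sets 11.2% were lower and 8.70% were higher in the parietal samples. Of the called genes, Hdc, Ddc and most granule genes passed the filter with no parietal array above its own median. Those granule genes were Scg2, Scg3, Scg5, Pcsk1, Ptprn, Resp18, Vgf and Disp2. Only brighter Mist1+ arrays could bring all of these into the test, so the counts are a description of the lists only. Chga and Chgb, chromogranins of the hormone granule, were at least 119-fold and 103-fold lower (adjusted p = 1.92e-06 and 2.03e-05). Between isthmus and chief samples 0 of the 9 and 0 of the 23 passed, with medians of -1.49 and -0.99 beside 0.00 over all tested probe sets. Sst, somatostatin, was nearest, at 12.16, 12.39 and 12.56 on chief arrays and 10.83, 10.71 and 11.10 on isthmus arrays (adjusted p = 0.0507, 0.0134 to 0.16 over the alternatives, of which 9 of 21 gave a call). Nkx2-2 and Sst therefore stood side by side with differences of -0.12 and -1.49 between isthmus and chief samples; whether these differ from each other was not tested.

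**Figure D4:**
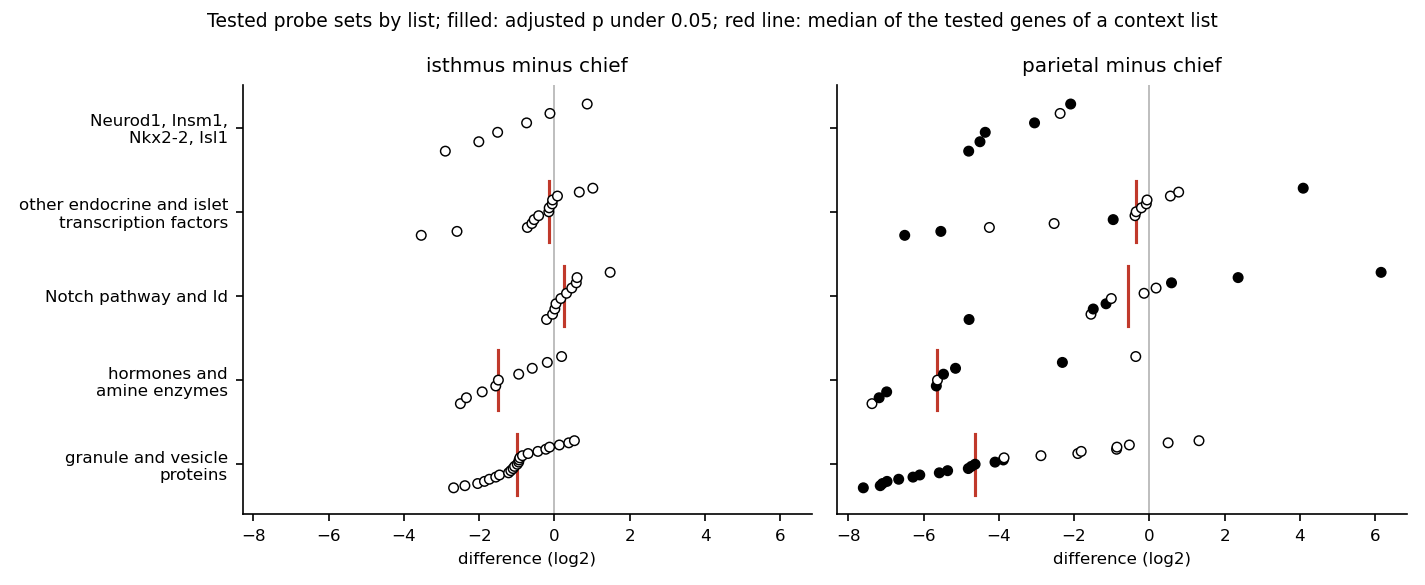
Differences (horizontal axis, log2) of the tested member probe sets and of the tested genes of 4 context lists, 1 point each, for isthmus minus chief (left) and parietal minus chief (right); filled points have an adjusted p under 0.05 and red lines are list medians. No point is filled on the left, while on the right 14 of 23 granule genes and 6 of 9 hormone genes are filled and lie below 0.

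Markers of enteric neurons and glia, of the pancreas, and of interstitial cells of Cajal and smooth muscle were mostly dim, with exceptions. Of 11 genes of enteric neurons and glia 9 had a probe set, none of the 9 passed the filter and 5 lay below the median on all 9 arrays, with a summed signal of 303 to 745 on the chief, 195 to 245 on the isthmus and 178 to 771 on the parietal arrays. Tubb3, a tubulin of neurons, was above the median on parietal replicates 1 and 3, at 9.09, 5.59 and 7.56 on the parietal arrays against 1.02 to 4.81 on the other 6. Uchl1 went the other way, at 5.77, 8.31 and 5.08 on chief against 4.73, 1.66 and 3.64 on parietal arrays. Prph was also higher on chief arrays, at 5.78 to 6.34 against 4.72 to 5.51 on parietal arrays, all below the medians. Elavl4 was above the median on chief replicate 2 alone, at 7.66. Ins2, insulin, of the islet cell, was 2.39 to 6.11 and below the median on all 9 arrays. Of the other pancreatic genes listed, Cela1 was above the median on all 9 arrays, at 6.42 to 11.53. Ptf1a was 6.99 and 9.36 on chief replicates 1 and 2, 8.63 on isthmus replicate 2 and below the median elsewhere. Among genes of interstitial cells of Cajal and smooth muscle, Kit was 10.80 to 11.42 on parietal arrays against 4.53 to 6.47 elsewhere. Ano1, of the same list, was above the median on all 9 arrays, at 8.54 to 12.21. Iapp, Pyy and Gcg, hormones made both in islets and in gut endocrine cells, each lay above the array median on most Mist1+ arrays. Iapp was 7.78 to 9.68 on chief, 7.56 to 10.01 on isthmus and 6.29 to 6.71 on parietal arrays. Pyy was 9.89 to 11.02 on chief, 5.22 to 10.12 on isthmus and 3.15 to 7.29 on parietal arrays. Gcg, glucagon, was 10.50 and 12.07 on chief replicates 2 and 3 but 2.43 on chief replicate 1. On isthmus arrays it was 1.54, 9.15 and 9.62, so that replicate 1 was low there too, and on parietal arrays 1.32, 6.27 and 0.53. The part of these cells in the members' differences was not tested.

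The genes whose signals ran most like those of the brightest members were found by Pearson's r over the 9 arrays among tested probe sets. For Nkx2-2 they were Gprc5a, Lurap1l and B4galnt1, with r = 0.995, 0.993 and 0.991. For Isl1 by 1450723_at they were Fosb, Tmsb10 and Eef2k, with r = 0.989, 0.984 and 0.981. For Insm1 by 1421399_at they were Ddx49, Homer3 and Prune2, with r = 0.959, 0.958 and 0.952. The arrays fall into 3 groups, so such values mostly restate the difference between parietal and Mist1+ samples: 560 genes had r over 0.9 with Nkx2-2, 445 with Isl1 and 47 with Insm1.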

How the data were processed

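Total RNA of 9 samples was labelled with biotin and hybridised to 1 Affymetrix array each, per the labels. The authors deposited log2 signals made with MAS5, per the submitters' processing notes. No source used here states the MAS5 version, the log step or the floor at 0. Log base 2 was taken from the values, since it gives a mean signal, trimmed by 2% at each end, of 496.2 to 497.2 on all 9 arrays. Values at 0 made up 1.99% to 3.91% of an array. The sample titles gave the groups and the replicate numbers.

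The platform annotation paired probe sets with genes, and symbols were checked by Entrez identifier against a RefSeq table of GRCm38.p6. Of 45037 probe sets 34945 named 1 gene, 932 several and 9160 none, and 34741 were matched. Tests used R 4.3.3 and limma 3.58.1 (1 mean per group, all 9 arrays, eBayes with an intensity trend, checked on simulated data). They were two-sided, with Benjamini-Hochberg adjustment within a comparison and a call at an adjusted p under 0.05. Where an array of the dimmer group was under its own median, it was set to that median and the fold is given as "at least". Context genes were read by 1 probe set each, the brightest of those tested. The alternatives were pseudocounts of 16 and 64, a floor at the array median, other filters, centred and quantile normalized arrays, 1 probe set per gene, no trend, 2 groups only, a replicate block and each array left out.

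The members, the lists and the tests were chosen with earlier results of these data known. Of a context list the text names called genes with the largest differences or, with none called, the 2 brightest. Others were chosen besides, after their values were seen. They are Hes1, Sst, Syp, Gast, Pdx1, Tubb3, Uchl1, Prph, Elavl4, Ins2, Cela1, Ptf1a, Kit, Ano1, Iapp, Gcg and the genes that check the arrays. Genes named only for the way they passed the filter were also chosen so. The labels do not say whether samples came from separate animals, so that p-values cover only the spread among these samples, and that spread may be technical. The number of arrays limits the precision. No detection calls, scanner files or batch records were used here.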

Additional observations from a re-analysis of the deposited data

How the results depend on the processing

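Between isthmus and chief samples the 240 calls became 424 with a pseudocount of 64, 119 with no filter, 33 without the intensity trend, 116 with only the 2 groups compared and 51 without chief replicate 3 and parietal replicate 1 together, an alternative chosen after seeing the data, and ranged from 28 to 233 when single arrays were left out; the number of members called was 0 throughout. Between parietal and chief samples the 4265 calls became 2675 with 1 probe set per gene and 2476 without both those arrays. The 5 members called became 3 with the stricter filter (3 tested), 3 with centred arrays, 3 with 1 probe set per gene (4 tested), 2 without both those arrays and 3 to 5 with single arrays left out. Between isthmus and parietal samples the 4817 calls became 3035 with 1 probe set per gene, and 3 to 4 members were called with single arrays left out. Centring each array raised the median of all differences to 0.37 between isthmus and chief and to 0.56 between parietal and chief samples and lowered it to -0.22 between isthmus and parietal samples, and it turned the split of higher and lower calls from 50 and 190 to 276 and 60, from 1861 and 2404 to 4911 and 1244, and from 2657 and 2160 to 1810 and 3082. Among the tested member probe sets and the context genes named, signs turned for these uncalled differences: between isthmus and chief samples for Nkx2-2 (0.26 centred, 0.01 after quantile normalization, -0.41 to 0.22 with single arrays left out), Foxa1 (0.31 centred), Foxa3 (-0.02 without both those arrays, -0.03 to 0.20 with single arrays left out) and Id3 (0.32 centred, 0.01 without both arrays, -0.14 to 0.03 with single arrays left out), and between isthmus and parietal samples for Neurod1 1426412_at (-0.15 to 0.71 with single arrays left out). Among the untested probe sets signs turned for 1 difference of Neurog3 and 7 of Pax6. The cause of these changes was not tested beyond the smaller number of probe sets or arrays. With the replicate number as a block the calls were 197, 4106 and 4639 and the same numbers of members were called (0, 5 and 3), but the numbers do not pair the samples, the correlations of their deviations being -0.018 to 0.055. Signals below the array median, those of Neurog3, most of Pax6 and 1 probe set of Neurod1, limit what can be said of these genes.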
